A study of Mus musculus with 221 samples.

Results

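The 10 genes described here belong to the actin cytoskeleton and were followed through the endothelial-to-hematopoietic transition in single mouse cells: the cytoplasmic actins Actb and Actg1, the monomer binding and severing proteins Pfn1, Cfl1, Tmsb4x and Tmsb10, the myosin light chain Myl6, and the tropomyosins Tpm1, Tpm3 and Tpm4. They were chosen by gene symbol, as 10 of 78317 genes and 88 of 278369 transcripts in the deposited tables. Of the 221 cells, 208 with at least 17595 estimated counts were used. Complementary DNA of each cell, made by the Smart-seq2 protocol, had been sequenced as nanopore long reads, so that a read could span most of a transcript.

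The cells were hemogenic endothelium (HE), the endothelium that gives rise to blood, and early progenitors, all from embryos carrying the Gfi1-GFP and Runx1b-RFP reporters. Sorted HE of the aorta-gonad-mesonephros region (AGM) was RUNX1+, KIT-, CDH5+, GFI1+ or GFI1-, and lacked CD41 and CD45, at E9.5 and E10.5. Yolk sac (YS) HE was RUNX1+, KIT+, CD31+, GFI1+ or GFI1-, and likewise lacked CD41 and CD45, at E9, E9.5 and E10.5. The AGM arm held HE-AGM early (29 cells kept), HE-AGM late (20) and HE-Hb (21), a cluster the study placed among the hematopoietic clusters of the aorta. The arterial YS arm held HE-YSA early (23), HE-YSA late (29) and the progenitors p1 (17), skewed to lympho-myeloid fate, and the plexus arm held HE-YSP early (25), HE-YSP late (24) and the progenitors p2 (20), skewed to erythro-myeloid fate. HE-AGM, HE-YSA and HE-YSP below are the early and late clusters together, with 49, 52 and 49 cells. A stage of its own was named for only 1 of the AGM cells kept (E10.5). HE-YSA held 2, 14 and 35 cells of E9, E9.5 and E10.5, and HE-YSP held 16, 13 and 20. HE-YSP early held 10, 2 and 13 of these, and HE-YSP late 6, 11 and 7. Stage was thus not matched between clusters, and using only YS cells of E10.5 left nearly all AGM cells without a named stage.

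No embryo is named for a cell, so each cluster counted as 1 sample and no difference could be tested. The clusters were defined by the authors from short reads of such cells, so a difference between clusters is a description of them. Cells of every cluster were spread over 3 nanopore runs, and the range over the runs is given as technical spread. Totals per cell ranged from 18131 to 125339, with medians of 59311 for HE-AGM, 34484 for HE-YSA and 33297 for HE-YSP. AGM cells came from cDNA projects GL34, GL43 and GL36, and all YS cells but 1 came from GL69, so tissue and cDNA project cannot be told apart. The exceptions were 1 HE-YSA early cell of GL43 and 2 GL69 cells with AGM in their library names, which are described apart. Summed markers of endothelium were lower at the end of each arm than at its start, going from 1829 to 252 CPM (counts scaled to a total of 1000000) in the AGM arm, from 1569 to 478 in the arterial arm and from 1646 to 270 in the plexus arm, while blood markers went from 582 to 1296, 316 to 1267 and 216 to 979 CPM.

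Actin monomers join into polar filaments that give a cell its shape, its junctions and its means to move. Profilin (Pfn1) delivers monomers to growing ends, the thymosins beta (Tmsb4x, Tmsb10) hold monomers in reserve, and cofilin (Cfl1) severs old filaments. Non-muscle myosin II, of which Myl6 is the essential light chain, pulls on filaments, and tropomyosins wrap along them and set which motors and severing proteins can bind. Tropomyosin genes make many proteins from 1 gene by a choice of start exons, of a pair of internal exons and of end exons.

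The internal pair is such a choice in Tpm1 and Tpm3, and its sequences are shown because shares of its exons are given below. Each pair has exons of 76 bases that are spliced as alternatives, here with the bases that differ within the pair in capitals, from the annotation GENCODE M21 on the genome build GRCm38. The Tpm1 pair lies at chr9:67032466-67032541 and chr9:67031951-67032026 on the minus strand, within the coding sequence, and 33 of the 76 bases differ (56.6% identity).
Tpm1-212 exon: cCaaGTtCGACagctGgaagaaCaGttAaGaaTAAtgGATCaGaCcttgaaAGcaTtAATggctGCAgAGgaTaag
Tpm1-211 exon: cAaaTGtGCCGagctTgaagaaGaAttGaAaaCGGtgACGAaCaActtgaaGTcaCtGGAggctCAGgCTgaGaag
The Tpm3 pair lies at chr3:90088401-90088476 and chr3:90089048-90089123 on the plus strand, and 37 bases differ (51.3% identity).
Tpm3-201 exon: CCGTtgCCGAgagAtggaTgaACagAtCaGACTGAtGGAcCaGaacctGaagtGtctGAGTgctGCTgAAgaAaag
Tpm3-202 exon: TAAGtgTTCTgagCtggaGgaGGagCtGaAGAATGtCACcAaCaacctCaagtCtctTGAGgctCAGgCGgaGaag

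The members differ in how well reads can be given to them, which bears on every level below. Actb and Actg1 encode nearly the same protein, and 128 of their 1125 coding bases differ (88.6% identity). The first 90 coding bases are shown with the differing bases in capitals, since reads that cover few of these could fit either gene. Both genes lie on the minus strand, Actb-201 at chr5:142903115-142906754 and Actg1-202 at chr11:120345690-120348542.
Actb-201 start: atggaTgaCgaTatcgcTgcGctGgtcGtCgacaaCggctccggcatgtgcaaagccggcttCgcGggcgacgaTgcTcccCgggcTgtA
Actg1-202 start: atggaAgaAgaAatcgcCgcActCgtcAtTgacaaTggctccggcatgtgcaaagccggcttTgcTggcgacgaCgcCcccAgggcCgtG
The thymosins are easier to separate, with 40 of 132 coding bases differing (69.7% identity), and they are shown whole because both follow the same course below. Tmsb4x-201 lies at chrX:167207093-167209315 and Tmsb10-203 at chr6:72957347-72958488, both on the minus strand.
Tmsb4x coding: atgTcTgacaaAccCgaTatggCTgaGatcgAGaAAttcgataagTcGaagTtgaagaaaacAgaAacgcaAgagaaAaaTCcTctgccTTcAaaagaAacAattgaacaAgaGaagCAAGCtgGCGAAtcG
Tmsb10 coding: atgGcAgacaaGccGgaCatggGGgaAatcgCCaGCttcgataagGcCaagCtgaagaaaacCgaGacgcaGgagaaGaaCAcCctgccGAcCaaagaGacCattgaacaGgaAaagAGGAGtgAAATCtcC

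For 7 members, counts also lay on genes of similar sequence, called look-alikes here, so the levels of these members are uncertain. Most look-alikes are processed pseudogenes, but some, such as Gm9844 and Tpm3-rs7, are annotated as protein coding, and whether the reads on them came from the members was not tested. Genes with an alignment of at least 90% identity over at least 200 bases or 50% of the transcript were searched in the M21 transcripts and looked up in the count table. For Actg1, 13 such genes held 74.9% of the counts summed over Actg1 and its look-alikes in HE-AGM, against 86.6% for HE-YSA and 84.6% for HE-YSP. Nearly all of that fell on Gm12715, a processed pseudogene with 99.6% identity over 1128 bases, with 444 CPM in HE-AGM, 4477 CPM in HE-YSA and 3740 CPM in HE-YSP. The share on look-alikes was 61.1 to 66.6% for Cfl1 (mostly on the pseudogene Gm6180), 33.0 to 47.2% for Myl6, 27.2 to 42.3% for Tmsb10 (on Gm9844), 19.2 to 22.7% for Tpm3, 8.44 to 12.8% for Tpm4 and 2.52 to 7.78% for Actb. Pfn1, Tmsb4x and Tpm1 had no look-alike that met these limits. Where adding the counts of look-alikes changed a 2-fold call or moved a ratio by over 1.5-fold, it is given beside the result.

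The plot of levels by cell shows the members in all 9 clusters. A level is the summed estimated counts of a gene over the cells of a cluster as CPM of all counts in those cells, and bracketed intervals are 95% exact Poisson intervals that cover counting error only. Reads of cDNA were counted once whatever their length. Levels were compared mainly between clusters, and genes were ranked by CPM only to name the most abundant of a list.

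**Figure D1:**
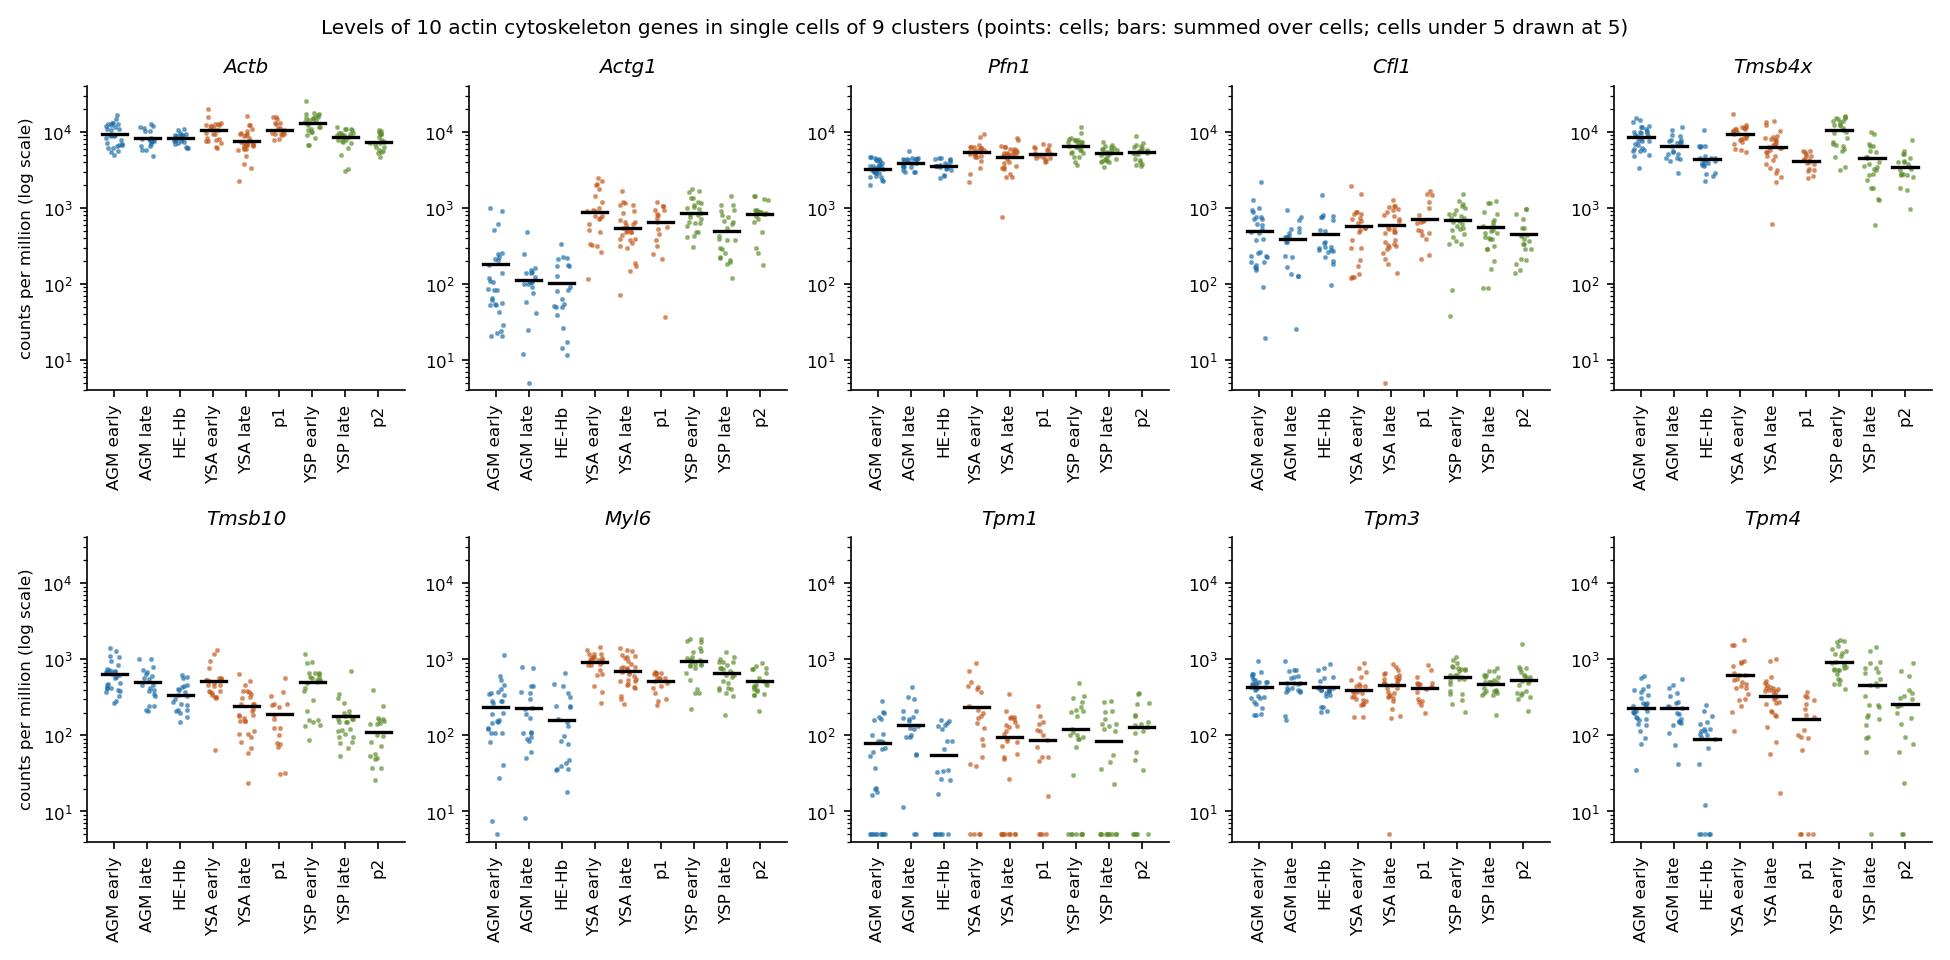
CPM (log scale) of the 10 genes in single cells of 9 clusters, with points for cells (those under 5 drawn at 5) and bars for the counts summed over cells. Actg1 lies between 103 and 182 CPM in the AGM clusters and between 500 and 878 CPM in the YS clusters, while Actb lies between 7395 and 13246 CPM throughout.

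Actb, the more widely used cytoplasmic actin, was found in every cell. It stood at 9284 CPM in HE-AGM early, 8376 in HE-AGM late and 8206 in HE-Hb, at 10607, 7546 and 10689 in HE-YSA early, HE-YSA late and p1, and at 13246, 8670 and 7395 in HE-YSP early, HE-YSP late and p2. The highest cluster, HE-YSP early, spanned 6744 to 25656 CPM over its cells, with a median of 13491, and the lowest, p2, spanned 4705 to 10453 with a median of 7282. In the order of the 9 levels, each pair of neighbours had run ranges that overlapped. The runs of HE-YSP early (12332 to 14064 CPM) still lay above those of every other cluster but p1 (9445 to 13564 CPM).

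Actg1, the second cytoplasmic actin, was low throughout the AGM arm and higher throughout the YS arms. It stood at 182, 113 and 103 CPM in HE-AGM early, HE-AGM late and HE-Hb, at 878, 549 and 656 in HE-YSA early, HE-YSA late and p1, and at 860, 500 and 829 in HE-YSP early, HE-YSP late and p2. Over the cells of HE-AGM the lowest value was 0.00109 CPM, far less than 1 read, the median 105 and the highest 1003. The cells of HE-YSA ranged from 70.6 to 2494 with a median of 612, and those of HE-YSP from 119 to 1785 with a median of 651. Single cells of the tissues thus overlapped, but among the ordered clusters the step from HE-YSP late (500 CPM) to HE-AGM early (182 CPM) was the one pair of neighbours whose run ranges did not overlap.

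Pfn1 (profilin 1) showed the same order of tissues with a smaller difference. Its levels were 3210, 3912 and 3517 CPM along the AGM arm, 5506, 4728 and 5078 along the arterial arm, and 6523, 5315 and 5464 along the plexus arm. Each AGM cluster was below each YS cluster, and the runs of HE-YSA late (4728 CPM) and HE-AGM late (3912 CPM), the neighbours at that border, did not overlap. Cfl1 (cofilin 1) ranged from 385 CPM in HE-AGM late to 708 CPM in p1, and no neighbouring clusters were separated over the runs.

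The monomer-holding thymosins followed a different pattern, with summed levels lower at each step of an arm. Tmsb4x (thymosin beta 4) stood at 8459, 6470 and 4427 CPM in the AGM arm, 9247, 6341 and 4112 in the arterial arm, and 10678, 4473 and 3436 in the plexus arm. Tmsb10 (thymosin beta 10) stood at 647, 504 and 344 CPM in the AGM arm, 522, 240 and 191 in the arterial arm, and 509, 178 and 112 in the plexus arm. Both genes were highest in the early HE cluster and lowest at the end of each arm. Tmsb10 was also higher in late HE of the AGM than in late HE of either YS arm. HE-Hb (344 CPM) lay above HE-YSA late (240 CPM) in Tmsb10, with runs that did not overlap.

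Myl6, the light chain, was separated by tissue as Actg1 was. It stood at 239, 229 and 161 CPM in the AGM arm, at 930, 710 and 517 in the arterial arm, and at 939, 661 and 515 in the plexus arm. Cells of HE-AGM ranged from 1.69 to 1136 CPM with a median of 189, and cells of HE-YSA from 255 to 1474 with a median of 818. The lowest YS cluster, p2 (runs 475 to 577 CPM), lay above the runs of HE-AGM early, the highest AGM cluster (149 to 317 CPM).

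The tropomyosins did not move as a family. Tpm3 was the steadiest, between 395 CPM in HE-YSA early and 588 in HE-YSP early, with overlapping runs between all neighbours. Tpm1 was the sparsest member: at least 1 count was present in 54.2 to 90% of the cells of a cluster, and levels ran from 55.6 CPM in HE-Hb to 234 CPM in HE-YSA early, again without a pair of neighbours separated by runs. Tpm4 had the clearest order of all members, with 5 of 8 neighbouring pairs separated: 910 CPM in HE-YSP early, 615 in HE-YSA early, 464 in HE-YSP late, 331 in HE-YSA late, 258 in p2, 229 in HE-AGM early, 226 in HE-AGM late, 163 in p1 and 90.7 in HE-Hb.

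The first comparison asked how HE of the AGM differs from both kinds of YS HE, and the members fell into lower, similar and higher groups. Actg1 was 153 CPM [140, 167] in HE-AGM against 694 [657, 733] in HE-YSA and 683 [644, 724] in HE-YSP, a log2 ratio of -2.18 (runs -2.35 to -2.0) and of -2.16. Myl6 was 235 CPM against 807 and 803 (log2 ratios -1.78 and -1.77), and Tpm4 was 228 CPM against 457 and 691 (-1.0 and -1.60). These 3 of 10 members were at least 2-fold lower in HE-AGM than in each YS population, where 13.3% of 11960 genes against HE-YSA and 14.5% of 11855 genes against HE-YSP were, and 8.61% of genes were lower in both. With look-alikes added, the log2 ratios became -3.08 and -2.86 for Actg1, -1.44 and -1.44 for Myl6 and -1.04 and -1.67 for Tpm4.

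Tpm4 against HE-YSA stood at the 2-fold limit. The log2 ratio was -0.86, -0.94 and -1.15 in the 3 runs, -0.98 with a library limit on the log scale, -0.92 with AGM cells of the largest cDNA project and -0.72 with YS cells of E10.5 only, so the call did not hold in 5 of these 6 settings. It was 0.12 when isoforms annotated as protein coding were counted alone, since much of the YS Tpm4 lay on an isoform without a defined coding sequence. Over those protein-coding isoforms Tpm4 was not called lower against HE-YSP either.

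Pfn1 and Cfl1 were below the 2-fold limit, with log2 ratios of -0.53 and -0.76 for Pfn1 (lower in HE-AGM in each run) and -0.39 and -0.49 for Cfl1. Over the runs, Cfl1 against HE-YSA was -0.98, 0.26 and -0.08, so its sign was not the same in each run, and with look-alikes added its ratios were -0.60 and -0.71. Actb had log2 ratios of 0.00 against HE-YSA and -0.30 against HE-YSP. Without isoforms annotated as incomplete, a setting chosen after seeing the data, they were 0.82 and 0.51, which turned the direction against HE-YSP. The log2 ratios were 0.09 and -0.23 for Tpm3 and -0.59 and 0.01 for Tpm1. Tmsb4x was nearly equal in the 3 pooled HE populations, at 7628, 7623 and 7632 CPM. The clusters pooled there differed, with early HE at 8459, 9247 and 10678 CPM and late HE at 6470, 6341 and 4473 CPM.
Tmsb10 was the member with the highest ratio, at 587 CPM in HE-AGM against 365 in HE-YSA and 346 in HE-YSP (0.69 and 0.76, the same sign in each run). It did not reach 2-fold, except against HE-YSP with its look-alike Gm9844 added (1.10).
No member was 2-fold higher in HE-AGM by its own counts, against a background of 31.8% and 34.0% of genes. The median over the 10 members was -0.46 against HE-YSA and -0.40 against HE-YSP, while the median of all genes tested was 0.31 and 0.37. With levels taken relative to the counts of protein-coding genes, the median of all genes was 0.20 and 0.27. Over all genes with a count, without the limit of 20 summed counts on both sides together, it was -0.04 and 0.03. The background median thus depended on that limit, on which the background shares of genes called also rest. Summed, the 10 genes came to 22246 CPM in HE-AGM against 25086 for HE-YSA and 28350 for HE-YSP.

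**Figure D2:**
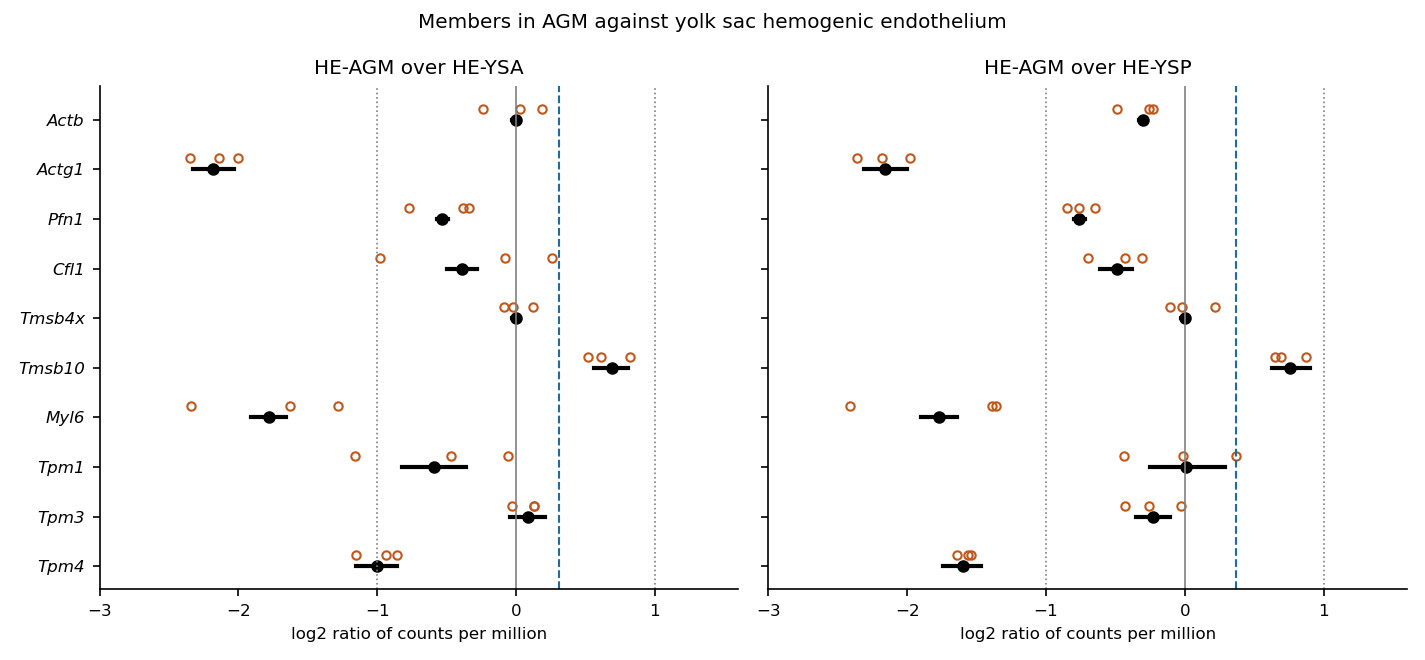
Log2 ratios of CPM in HE-AGM over HE-YSA and over HE-YSP for the 10 genes, for all cells and for each nanopore run. Actg1 (-2.18 and -2.16) and Myl6 (-1.78 and -1.77) lie below -1 in both panels, Tpm4 lies at -1.0 and -1.60, and Tmsb10 lies at 0.69 and 0.76.

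With early and late clusters pooled, the YS populations were much alike in these genes. Between HE-YSP and HE-YSA no member differed 2-fold, where 9.48% of 9780 genes were 2-fold higher and 11.5% were 2-fold lower, and the median log2 ratio of the members was 0.05. Actg1 was 683 against 694 CPM, Myl6 803 against 807 CPM and Tmsb4x 7632 against 7623 CPM. In late HE alone, Tmsb4x was 4473 CPM in HE-YSP against 6341 in HE-YSA, with runs that did not overlap. Tpm4 was 691 against 457 CPM, and its runs, 607 to 746 against 432 to 484 CPM, did not overlap.

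The single cells with crossed origins had Actg1 and Myl6 levels nearer to the YS medians than to the AGM medians. The HE-YSA early cell that came from cDNA project GL43, as 5 AGM cells did, had 725 CPM of Actg1, 1187 of Myl6, 6715 of Pfn1 and 116 of Tpm4. The Actg1 level of the 5 AGM cells of that project was 28.5 to 204 CPM. In the 2 GL69 cells named for the AGM there were 1443 and 487 CPM of Actg1 and 644 and 544 CPM of Myl6. Without the 3 cells the members called lower in HE-AGM were the same 3.

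The next comparisons followed each arm from early HE to the progenitors, and the thymosins, Tpm4 and Myl6 ended lower than they began in all 3. From the first to the last cluster, Tmsb4x had log2 ratios of -0.93 in the AGM arm, -1.17 in the arterial arm and -1.64 in the plexus arm, and Tmsb10 of -0.91, -1.45 and -2.17. Tpm4 had ratios of -1.33, -1.91 and -1.81, and was the only member at least 2-fold lower at the end of all 3 arms, as 4.78% of 5754 genes were. Myl6 had ratios of -0.57, -0.85 and -0.87, below the 2-fold limit.
For these 4 genes the ratio of last over first cluster had the same sign in each run of each arm. Their summed levels were also lower at each step, but not every step had the same sign in each run. From early to late HE-AGM, Tpm4 had log2 ratios of 0.36, -0.59 and 0.03 in the 3 runs, and Myl6 of -0.21, -0.07 and 0.20. Myl6 in HE-Hb over HE-AGM late, and Myl6 and Tmsb4x in p2 over HE-YSP late, also changed sign over the runs.

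The background of genes at least 2-fold lower over a whole arm was 23% in the AGM arm, 17% in the arterial arm and 17.9% in the plexus arm. The members called lower were 1 (Tpm4), 4 (Tmsb4x, Tmsb10, Tpm1 and Tpm4) and 3 (Tmsb4x, Tmsb10 and Tpm4) of 10, and 0 were called higher, against 9.63%, 12.8% and 16.5% of genes. Their medians were -0.54, -0.64 and -0.72, with medians of all genes of -0.14, 0.05 and 0.09. The members that stayed within a smaller range over an arm were Pfn1 (0.13, -0.12 and -0.26) and Tpm3 (-0.01, 0.07 and -0.14), while Actb had ratios of -0.18, 0.01 and -0.84. With look-alikes added, Tmsb10 was also called lower in the AGM arm (-1.05), and without isoforms annotated as incomplete Actb was also called lower in the plexus arm (-1.18). Tpm1 in the arterial arm was -3.70, -0.76 and -0.56 in the 3 runs, so it was past the limit in run 1 alone. Tmsb4x (-0.99) and Tmsb10 (-0.96) fell short of the limit in run 1 of that arm. In run 2 of the plexus arm, Tmsb4x also fell short (-0.94). The endothelial and blood marker sums given above moved along the same arms, and their part in these ratios was not tested.

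**Figure D3:**
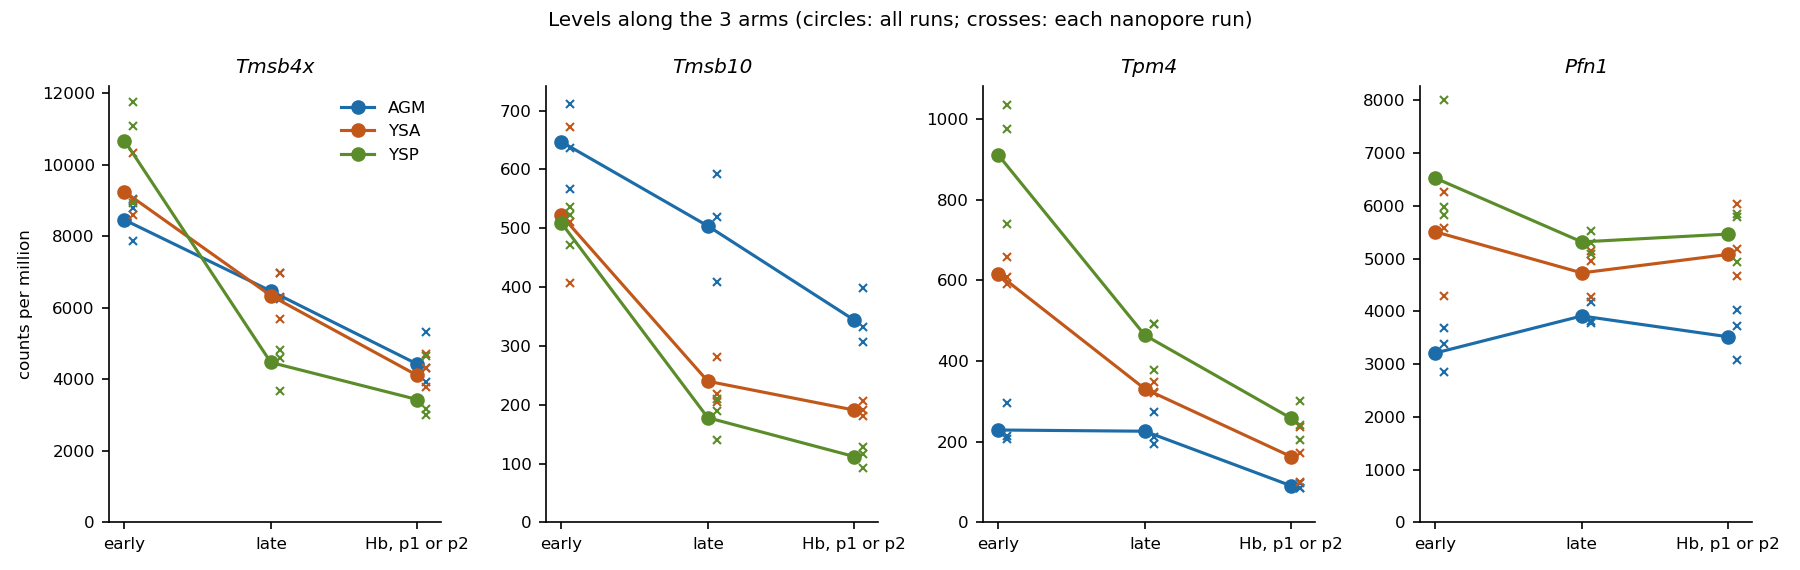
CPM of Tmsb4x, Tmsb10, Tpm4 and Pfn1 along the AGM, arterial YS and plexus YS arms, with circles for all runs and crosses for each nanopore run. Tmsb4x goes from 8459, 9247 and 10678 CPM in early HE to 4427, 4112 and 3436 CPM at the arm ends, whereas Pfn1 stays between 3210 and 6523 CPM.

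Step by step, the calls came at different points of the arms. Between early and late HE of the AGM no member differed 2-fold (17.2% of genes were lower and 9.10% higher), and Tpm4 was 229 and 226 CPM. Actg1 had a log2 ratio of -0.68 there and of 0.36 with look-alikes added, so its direction depended on them. Between early and late HE-YSA, Tmsb10 (log2 ratio -1.12, and -0.53 in run 1) and Tpm1 (-1.30) were at least 2-fold lower in the late cluster, where 11.7% of genes were. The Tpm1 call was lost without the 3 cells of crossed origin (-0.98) and with YS cells of E10.5 only (-0.76), and it was -0.71 in run 2. Tpm2 (51.2 and 4.70 CPM) and the cardiac actin gene Actc1 (206 and 8.45 CPM) were also lower in late HE-YSA, and their part in the Tpm1 ratio was not tested.
Between early and late HE-YSP, Tmsb4x (-1.26) and Tmsb10 (-1.51) were lower, where 12.6% of genes were.

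From late HE to progenitors, Tpm4 was lower in HE-Hb (-1.31, from 226 to 90.7 CPM) together with Tpm1 (-1.31, and -0.77 in run 1), where 15.3% of genes were, and 0 members were higher (9.90% of genes). In p1 against HE-YSA late, Tpm4 was the only member called (-1.02, where 15.9% of genes were lower), a call lost in run 2 (-0.44), with YS cells of E10.5 only (-0.84), with a library limit on the log scale (-0.95) and over protein-coding isoforms (-0.71). Actg1 had a ratio of 0.26 there, and of -0.27 with look-alikes added. In p2 against HE-YSP late no member was called, where 12.1% of genes were lower and 8.15% higher, and Tpm4 was 258 against 464 CPM. Between p2 and p1 no member was called either (9.33% of genes higher, 9.25% lower), with Tmsb10 at 112 and 191 CPM.

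The share of a gene's counts on each isoform was described next, since long reads were collected for it. Of the 88 transcripts, 30 reached 10% of their gene's counts in at least 1 cluster. Pfn1 and Tmsb10 had a single main isoform throughout, Pfn1-201 with 98.6, 98.5 and 98.4% and Tmsb10-203 with 97.9, 96.3 and 97.4% in HE-AGM, HE-YSA and HE-YSP. Tmsb4x was split between Tmsb4x-201 and Tmsb4x-202, whose first exons differ, with 21.4, 27.9 and 26.9% on the latter.

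Between HE-AGM and the YS populations, 5 of 10 members had an isoform whose share differed by more than 10 percentage points against HE-YSA (Actb, Actg1, Cfl1, Tpm1 and Tpm4) and 4 of 9 against HE-YSP (Actb, Actg1, Cfl1 and Tpm4), Tpm1 having too few counts in HE-YSP. Of all genes with at least 200 counts on each side, 48.8% of 1088 and 45% of 957 did, so that the members' share was near that of all genes. Between HE-YSP and HE-YSA, 0 of 9 members and 7.55% of 941 genes did.

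Actb and Tpm4 showed the widest gaps, Actb against HE-YSA and Tpm4 against HE-YSP. Actb-201, the 6-exon form with the full coding sequence, held 88.0% of Actb counts in HE-AGM (runs 85.9 to 89.0%), against 42.1% of HE-YSA counts (39.5 to 44.5%) and 42.0% of HE-YSP counts (36.4 to 50%). By cluster it held 88.3, 87.4 and 89.3% along the AGM arm, 43.7, 40.3 and 44.1% along the arterial arm and 44.7, 37.9 and 29% along the plexus arm. Cell by cell, outside the 3 cells of crossed origin, 70 AGM cells ranged from 75 to 95.8% with a median of 88.3%, and 135 YS cells from 6.77 to 82.1% with a median of 36.3%. Only 1 of these YS cells reached the lowest AGM cell.

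The rest of YS Actb lay on shorter annotated transcripts that end inside the fourth exon of Actb-201. Actb-208 (chr5:142904351-142905821) held 1.5% in HE-AGM against 36.8% for HE-YSA and 36.0% for HE-YSP, Actb-206 held 0.173, 8.76 and 9.28%, and Actb-202 held 5.30, 10.4 and 10.9%. Actb-208 and Actb-202 start within the first intron of Actb-201 and are marked in the annotation as incomplete at the 3′ end.
Over all genes but the members, the counts on isoforms marked this way amounted to 3.99% for HE-AGM against 7.21% for HE-YSA and 7.03% for HE-YSP, and the mean annotated length of the counted transcripts was 1513, 1173 and 1165 bases. Their part in the isoform differences was not tested.

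For Actb isoforms, the cells of crossed origin went with their cDNA project. The HE-YSA early cell of GL43 had 92.1% of Actb on Actb-201 and 4.01% on Actb-208, within the range of AGM cells. The 5 AGM cells of GL43 had 84.5 to 93.9% on Actb-201. In the 2 GL69 cells named for the AGM it was 14.1% or less, within the range of YS cells. Other measures of the GL43 cell are given next. It had 53.3% of Actg1 on Actg1-205, where the median was 16.6% for AGM cells and 30.8% for YS cells. That share lay within both ranges (0 to 61.1% for AGM cells and 0 to 86.6% for YS cells), so it could not place the cell with either. Its counts of other genes on isoforms marked as incomplete at the 3′ end were 7.78%, above the HE-AGM cells (2.63 to 6%) and within the HE-YSA cells (5.34 to 9.58%). These cells are too few to compare projects within a tissue, and tissue and project cannot be told apart for isoform shares.

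**Figure D4:**
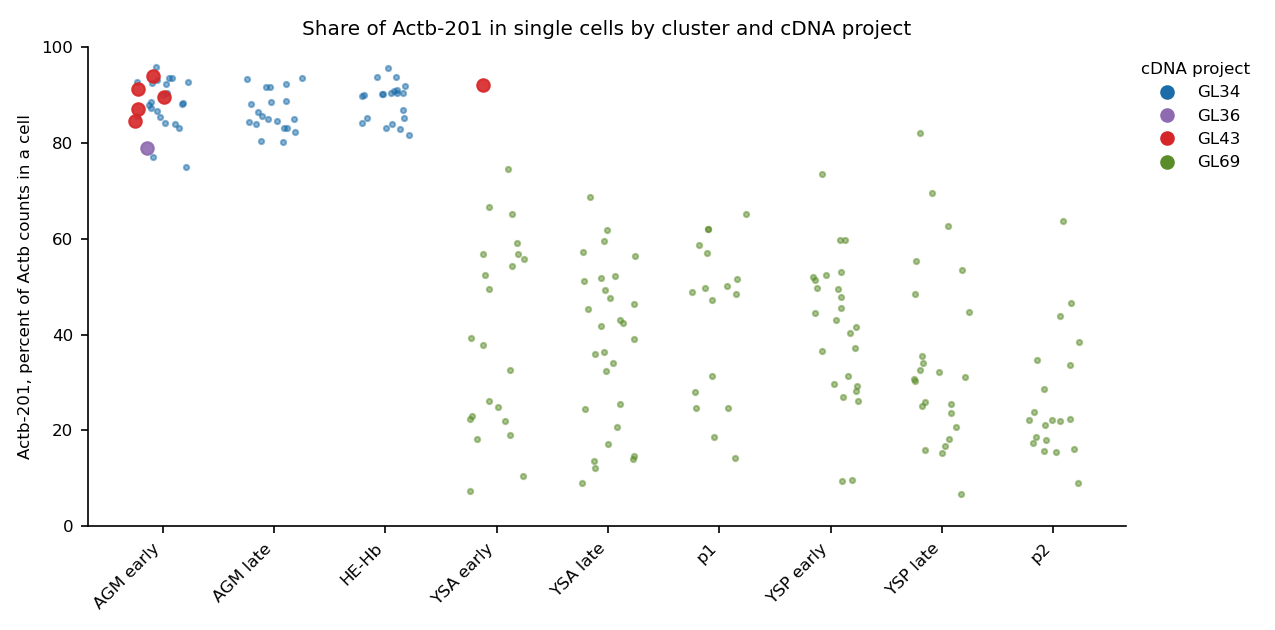
Percent of the Actb counts of each cell on Actb-201, by cluster, coloured by cDNA project. AGM cells lie between 75 and 95.8%, most YS cells lie lower with a median of 36.3%, and the single YS cell of GL43 lies at 92.1%.

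Actg1 was spread over 5 isoforms. Actg1-208, a short transcript annotated with a retained intron, held 42.8% of Actg1 in HE-AGM (95% exact binomial interval 38.4 to 47.2), 25.3% in HE-YSA and 25.9% in HE-YSP. Actg1-205, marked incomplete at the 3′ end, held 17, 32.9 and 29.7%, and Actg1-201 held 9.24, 1.25 and 1.84%. The full-length forms Actg1-202 and Actg1-204 held near-equal shares, and in 77.5% of cells with either their estimates were within 1% of each other, so the reads seldom separated them.

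Tpm4-202, a transcript without a defined coding sequence, held 23.9% of Tpm4 in HE-AGM (runs 16.9 to 37.3%), but 65.0% of HE-YSA counts (52.8 to 71.5%) and 74.6% of HE-YSP counts (65.7 to 80.9%). Single cells did not separate: the share ran from 0 to 100% in both HE-AGM (median 12%) and HE-YSA (median 69.9%). The coding forms Tpm4-201 and Tpm4-203 shared the rest and had estimates within 1% of each other in 95% of cells.
Cfl1-201, the longer cofilin transcript, held 17.5% in HE-AGM against 1.34 and 1.61% in the YS populations, but its run values in HE-AGM were 2.25 to 29.9%, so the share depended on the run.

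**Figure D5:**
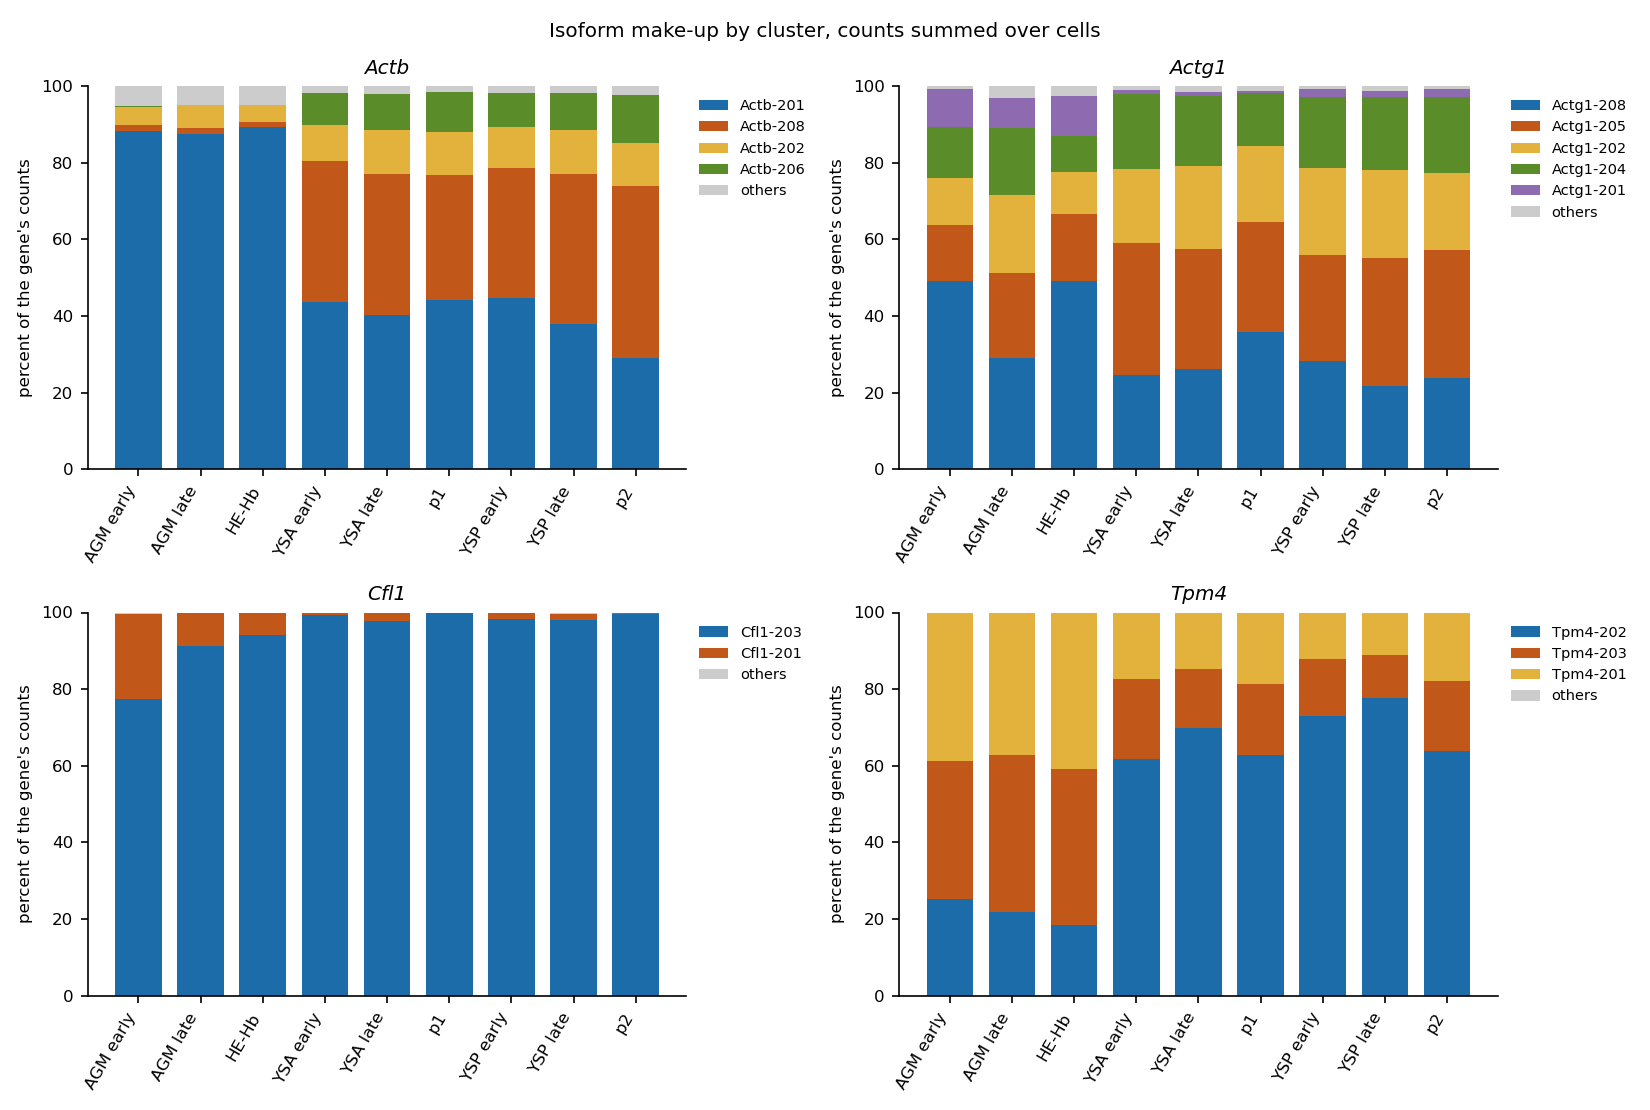
Isoform make-up of Actb, Actg1, Cfl1 and Tpm4 in 9 clusters, as the percent of each gene's counts summed over cells. Actb-201 holds 87.4 to 89.3% in AGM clusters and 29 to 44.7% in YS clusters, and Tpm4-202 holds 18.4 to 25.3% and 61.8 to 77.6%.

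The exon choices of the tropomyosins were read from all isoforms that carry either exon. In Tpm1, the exon of Tpm1-212 printed above was used in 52.9% of counts in HE-AGM (runs 51.0 to 57.5%), against 67.3% for HE-YSA (61.3 to 72.7%) and 62.8% for HE-YSP (57.7 to 70.8%). By cluster it ran from 47.2% in HE-AGM late to 79.6% in p1 and 92.7% in p2, where the 95% interval was 85.3 to 97.0% and the runs 85.6 to 99.9%. The start exon of the short form Tpm1-212, against that of the long form Tpm1-216, was used in 73.1, 77.3 and 83.6% of counts in the 3 HE populations, and in 98.1% in p1 and 95.7% in p2. These shares rest on few counts: the exon of Tpm1-212 had 87.2 counts in p2 and 46.2 in p1, and its alternative 6.82 and 11.8. In HE-YSP late the share of the exon of Tpm1-212 was 5.35 to 85.5% over the runs. The shares are sums of isoform estimates. Tpm1-212 and Tpm1-211 had estimates within 1% of each other in 44.7% of cells with either, so the reads often did not separate them.

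In Tpm3 both choices had near-equal values in the 3 HE populations. The exon of Tpm3-201 was used in 83.9, 83.7 and 85.3% of counts in HE-AGM, HE-YSA and HE-YSP. HE-Hb was the highest cluster, at 92.4% (runs 91.4 to 94.5%), and HE-AGM early was at 83.0% (78.4 to 87.8%). The start exon of Tpm3-204 was used in 42.3, 42.9 and 43.4%. Tpm3-204 and Tpm3-201, which differ at the start, had estimates within 1% of each other in 98.1% of cells, so this share says little about which start was used.

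Myl6 carries a small exon of 45 bases before its last exon, at chr10:128491720-128491764 on the minus strand, which changes the end of the protein. It is shown with its 26 coding bases in capitals.
Myl6-206 exon: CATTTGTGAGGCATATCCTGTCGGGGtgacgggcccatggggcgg
The exon was included in 2.85% of assignable Myl6 counts in HE-AGM (1.74 to 4.45%), 9.43% in HE-YSA and 10.2% in HE-YSP. By cluster it was lowest in HE-AGM late (0.840%) and highest in p1 (11.9%), with p2 at 5.54%. Myl6-205, in which the third exon is shorter by 36 bases, held a steady share of 20.8, 20.6 and 20.6% in the HE populations.

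Promoters were read for the CArG box, the binding motif of serum response factor, a known regulator of many actin genes. The motif was searched by name over 250 bases before to 50 bases after the start in RefSeq promoters of GRCm38.p6, and reads alike on both strands. Actb had no promoter sequence there and was not searched. Of the 9 members with a promoter sequence, 2 held the motif: Actg1, with CCATATATGG starting 90 bases before the start, and Myl6, with CCTTATATGG starting 50 bases before it in 1 of its 2 promoters. The motif was in 1.63% of 32851 promoters. A match is a description of these letters and not of binding.

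Other genes of the pathway were taken from lists of 89 genes. Against HE-YSA, 23 of 69 genes tested were at least 2-fold higher in HE-AGM (33.3%, against 31.8% of all genes) and 11 were lower (15.9%, against 13.3%). Against HE-YSP, 22 of 67 were higher (32.8%, against 34.0%) and 7 lower (10.4%, against 14.5%). The shares of the whole pathway were thus close to those of all genes.

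Motor and regulatory genes were among the higher ones. Of 5 myosin II genes tested, 2 were higher against HE-YSA and 3 against HE-YSP: Myh9, the heavy chain of non-muscle myosin IIA, was 191 CPM in HE-AGM against 16.3 for HE-YSA and 23.3 for HE-YSP (log2 ratios 3.53 and 3.02), and Myh10 was 59.8, 23.6 and 25.1 CPM. The most abundant gene of that list, the light chain Myl12a, stood at 267, 212 and 191 CPM. The GTPase genes Rhoa (118, 26.1 and 31.8 CPM), Rhob (35.4, 1.05 and 1.20 CPM) and Cdc42 (292, 89.2 and 124 CPM) were higher in both, while Rac1 stood at 322, 301 and 360 CPM. The kinase Rock1 (19.6, 5.25 and 2.09 CPM) and the cofilin phosphatase Ssh1 (35.4, 2.62 and 14.4 CPM) were also higher in both.
Of 12 cross-linkers and side binders, 6 were higher in each comparison, such as the bundling protein Fscn1 (490, 164 and 230 CPM) and the scaffold Iqgap1 (78.1, 24.1 and 32.9 CPM), with Actn1 (28.8, 5.77 and 1.79 CPM) also higher in both, and 1 was lower, the calponin Cnn2 (50.5, 251 and 164 CPM). The most abundant of these genes, Tagln2, stood at 660, 1106 and 818 CPM. Of the membrane links, Msn stood at 404, 278 and 245 CPM, and of the transcription factors of actin genes, Mrtfb was higher in both (39.6, 16.3 and 15.6 CPM).

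Genes of filament assembly and capping divided. In the Arp2/3 complex, which starts branches, the actin-related subunit Actr2 was higher in HE-AGM (185, 47.2 and 54.4 CPM) and the subunit Arpc3 lower (96.7, 288 and 359 CPM), while Arpc4 stood at 386, 445 and 623 CPM. Of 12 genes of monomer binding and turnover, 3 were lower in each comparison, namely the capping proteins Capg (87.4, 244 and 283 CPM) and Capza2 (16.8, 41.5 and 35.9 CPM) and the monomer binding twinfilin Twf2 (52.0, 113 and 232 CPM). On the higher side were 2 of the 12 against HE-YSA and 1 against HE-YSP. Of all genes, 13.3% and 14.5% were lower and 31.8% and 34.0% higher. The most abundant, Capzb, stood at 241, 343 and 368 CPM. Of the nucleators and elongators, Evl (73.3, 17.3 and 13.2 CPM) and the formin Diaph1 (17.4, 6.30 and 7.18 CPM) were higher, Was was lower (8.71, 17.8 and 19.7 CPM) and Wasf2 stood at 135, 144 and 157 CPM.

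Muscle-type genes were looked at as signs of other cells. The summed smooth muscle list was 1.52 to 70.7 CPM over the clusters, with Myh11 and Des at 0 in all of them, and its highest value, in HE-YSA early, held 51.2 CPM of Tpm2, the remaining tropomyosin gene. Actc1, cardiac actin, was 206 CPM in HE-YSA early and 98.5 CPM in HE-AGM late, and 0 in HE-Hb, p1, p2 and both HE-YSP clusters. The mesenchyme list reached 172 CPM in HE-Hb, all of it Dlk1. The macrophage list was 0 to 16 CPM.

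The genes with the most similar levels over the 9 clusters were found by Pearson correlation of log2(CPM + 1) among 5297 genes, as a description with no test, since clusters of a tissue share cDNA projects and depth. Closest to Actg1 were Hspa5 (0.992) and the pseudogenes Actb-ps1 and Gm4750 (both 0.984), and closest to Myl6 were the lysosomal protease genes Ctsb (0.982) and Ctsl (0.981). Closest to Tmsb4x was Ctnna1 (0.987), the catenin that ties junctions to actin, and to Tmsb10 the formin Fmnl3 (0.961). Closest to Cfl1 was Capg (0.947), to Tpm1 Id1 (0.945), to Pfn1 Mrpl58 (0.964), to Actb Klf10 (0.912), to Tpm3 Atp1b3 (0.876), and to Tpm4 its own pseudogene Gm7809 (0.985). The other two named for each were Tm9sf1 and Svbp for Actb, Vps29 and Commd1 for Pfn1, Knstrn and Chmp2a for Cfl1, Bcl6b and Upp1 for Tmsb4x, Map4 and Fgfr1 for Tmsb10, Sqle and Tmed10 for Tpm1, Ap1b1 and Ndufb10 for Tpm3, and Tmem134 and Gm5526 for Tpm4, with Gm7588 as the third for Myl6.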

How the data were processed

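Nanopore reads of Smart-seq2 cDNA were basecalled, trimmed and cleared of chimeric reads by the authors, aligned to GENCODE M37 transcripts with Minimap2 2.26 and quantified with NanoCount. As deposited, the estimated counts carry no normalization, and 67.6% of the members' values above 0 are not whole. TPM, as deposited, holds these counts at an equal total per cell, with no correction for length. Cells under 1 scaled median absolute deviation below the median total of 38780 were left out, after the study's methods.

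Counts were summed by the cluster in the labels, and 0.5 counts were added to each side of a ratio. Genes needed 20 summed counts, and a 2-fold ratio was called. Rounded counts gave the intervals. No test was run. Members and lists were chosen with earlier results of these data known. Of each pathway list, the gene with the highest CPM and those 2-fold apart in the same direction from both YS populations were named, and for each member the 3 genes with the highest correlation over clusters among those with 50 CPM in a cluster. A gene named by this rule and the counts of a list are not reported here. Exon structures and look-alikes were read from M21 on GRCm38, where the Tpm4 isoforms did not match by length. Ratios, intervals and isoform shares were tested on simulated counts.

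Alternatives changed the library limit, scaling, runs, cells, look-alikes and isoforms. Python 3.11.15, numpy 2.4.6, pandas 2.3.3, scipy 1.17.1, matplotlib 3.10.9, blastn 2.17.0, R 4.3.3, edgeR 4.0.16 (TMM factors) and DESeq2 1.42.0 (size factors) were used.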

Additional observations from a re-analysis of the deposited data

Results flagged for a closer look

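The Tpm1 ratio of late over early HE had opposite signs in HE-AGM and HE-YSA. The log2 ratio of late over early was 0.80 in HE-AGM, where it was 0.59, 2.69 and 0.33 in the 3 runs, and -1.30 in HE-YSA, where it was -1.59, -0.71 and -1.46. Muscle-type genes differed in the same directions: from early to late, Actc1 was 1.55 and 98.5 CPM and Tpm2 5.67 and 17.3 CPM in HE-AGM, and 206 and 8.45 CPM and 51.2 and 4.70 CPM in HE-YSA. Their part in the Tpm1 ratios was not tested, and neither was the difference between the populations.

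The 13 cells under the library-size limit were used in no comparison and held signal of all 10 genes. Their summed levels were 10552 CPM for Actb, 1187 for Actg1, 6994 for Pfn1, 557 for Cfl1 and 6781 for Tmsb4x. They were 175 CPM for Tmsb10, 945 for Myl6, 316 for Tpm1, 522 for Tpm3 and 835 for Tpm4. These values rest on 98222 counts in all.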

How the results depend on the processing

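Results were recomputed under other library limits, scalings, single runs, cells and isoform sets, 1 choice at a time. Ratios and isoform shares were judged against the SD over the 3 runs, a spread that holds the single runs themselves. Counts of members past the isoform limit were judged by their fold difference from the main count. Leaving out isoforms marked incomplete was added after seeing the data. Of the medians over members and the isoform counts, 168 values stayed within their limit and 31 moved. Some values could not move, so the number that stayed is no measure of robustness. Changing the background genes leaves the members' median as it is. Comparisons within the AGM arm could not change when YS cells were left out, nor YS comparisons when AGM cells were. The latter holds for single genes as well. Of the single genes and isoforms, 1817 stayed and 272 moved, and 1 value past its limit changed sign: Tpm4 in HE-AGM over HE-YSA, from -1.0 to 0.12 over protein-coding isoforms. Values within their limit that changed sign are counted among the others, such as Actb in HE-AGM over HE-YSP, from -0.30 to 0.51 without incomplete isoforms, and Actg1 in late over early HE-AGM, from -0.68 to 0.36 with look-alikes added.

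For HE-AGM over HE-YSA the median of -0.46 was -0.07 in run 3. Over HE-YSP, -0.40 became -0.57 in run 1, -0.59 with YS cells of E10.5, -0.55 with look-alikes added and -0.22 over protein-coding isoforms. For HE-YSP over HE-YSA, 0.05 became 0.30 in run 2. For late over early HE-AGM, -0.11 became -0.02 with TMM or DESeq2 factors, -0.20 in run 2, -0.14 in run 3, -0.18 with the largest cDNA project and -0.06 with look-alikes. In run 2, late over early HE-YSA went from -0.52 to -0.10, late over early HE-YSP from -0.57 to -0.93, and p2 over HE-YSP late from -0.27 to 0.17. For p1 over HE-YSA late, -0.11 became 0.09 in run 2 and -0.33 with E10.5 cells. For p2 over p1, 0.05 became -0.09, -0.04 and -0.10 in runs 1, 2 and 3 and 0.08 with look-alikes. The cause of these moves was not tested.

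Members past the isoform limit against HE-YSA went from 5 to 2 of 8 in run 1, 2 of 7 in run 2 and 2 at a limit of 0.2, and against HE-YSP from 4 to 2 of 6 in run 2 and 2 at 0.2. Between the YS populations, 0 became 1 with the log-scale limit, run 1, run 2, without the 3 cells of crossed origin, and by the mean of shares per cell.

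No paired analysis was possible because no embryo or replicate number links cells of different clusters. Single runs hold fewer cells, and each cluster is 1 sample.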

Other observations

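Levels of some members varied together over the cells of HE-YSP, as a description with no test, since cells share runs, each value is a share of the cell's total, and HE-YSP holds early and late cells whose levels differ (Tmsb4x 10678 and 4473 CPM, Tmsb10 509 and 178 CPM). Spearman's rho for Tmsb4x and Tmsb10 was 0.63 over 49 cells of HE-YSP, 0.39 over 52 cells of HE-YSA and 0.07 over 49 cells of HE-AGM. For Actb and Pfn1 it was 0.62, 0.36 and 0.14, and for Actb and Myl6 0.62, 0.34 and 0.04. These pairs were chosen as the highest in HE-YSP, and others had the opposite order, such as Tmsb10 and Tpm1 (-0.08 in HE-YSP, 0.39 in HE-YSA and -0.10 in HE-AGM).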
